A study of Mus musculus with 8 samples.

Results

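Regulators of G protein signalling (RGS proteins) are the off switches of heterotrimeric G proteins. The 10 examined here were Rgs2, Rgs4, Rgs6, Rgs7, Rgs8, Rgs10, Rgs12, Rgs14, Rgs17 and Rgs20, taken by symbol from the deposited tables and joined to the mouse values by transcript identifier. They were selected with the differences between the groups in these data already known, so their own values, and the statement of which members passed the threshold used for all genes, are a description and no test of the members. All 10 members passed the read threshold, out of 10588 genes tested and out of 15 genes with an Rgs symbol among them. The threshold was 10 RPM, reads scaled to the column total, in at least 1 mouse. Rgs14 lay closest to it, at 8.94 to 24.7 RPM and above 10 in 7 of the 8 mice, and the other 9 members were above it in every mouse.

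RNA from right cerebral cortex was sequenced after poly(A) selection in 4 bigenic mice and 4 nontransgenic mice, with 3 males in each group. Bigenic mice carried both a Camk2a-tTA transgene, whose promoter is active mainly in excitatory neurons of the forebrain, and a tetO-ΔNLS-hTDP-43 transgene, a doxycycline-repressed human TDP-43 with a mutated nuclear localization signal. Both groups were fed doxycycline until 28 days of age and were killed after 10 days without it, and the nontransgenic mice, bred from parents heterozygous for each transgene, carried neither. Effects of tTA and of the human protein therefore cannot be told apart here, and neuronal transcripts are read against the RNA of all other cortical cells. In bulk cortex, fewer cells of a type and less RNA per cell cannot be told apart either.

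A receptor bound by its ligand loads a Gα subunit with GTP and frees it from its Gβγ partner, and Gα and Gβγ each act on channels and enzymes until Gα cleaves the GTP. RGS proteins speed that cleavage through a shared RGS domain and so shorten the signal. The family is divided into subfamilies: small R4 proteins (Rgs2, Rgs4 and Rgs8), R7 proteins (Rgs6 and Rgs7), which need the atypical subunit Gβ5 to be stable, R12 proteins (Rgs10, Rgs12 and Rgs14), and RZ proteins (Rgs17 and Rgs20), which act on Gαz and other Gαi relatives. In the cortex, RGS proteins are best known for setting how strongly neurons respond to acetylcholine, monoamines, opioids and glutamate through G protein-coupled receptors.

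The promoters of 3 members are shown because the first 2 genes are the most abundant member and the member that was higher in the bigenic mice, which differed between the groups in opposite directions, and the third was lower as Rgs4 was. Each is the 250 bases before the start of the gene in RefSeq (build GRCm38.p6), 5′ to 3′ along the gene, with its single match in mm9, the build of the deposited tables, at chr1:171677774-171678023 on the minus strand for Rgs4, chr1:145851280-145851529 on the minus strand for Rgs2 and chr10:4423891-4424140 on the plus strand for Rgs17. Capitals mark 3 searched motifs on either strand: the cyclic AMP response element half-site (TGACG or CGTCA), the TATA box (TATAAA or TTTATA) and the CCAAT box (CCAAT or ATTGG).
Rgs4: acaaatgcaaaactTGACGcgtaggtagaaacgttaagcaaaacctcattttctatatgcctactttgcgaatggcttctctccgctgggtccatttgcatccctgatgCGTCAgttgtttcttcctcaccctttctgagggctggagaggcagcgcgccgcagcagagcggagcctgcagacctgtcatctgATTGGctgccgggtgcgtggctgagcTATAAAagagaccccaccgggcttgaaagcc
Rgs2: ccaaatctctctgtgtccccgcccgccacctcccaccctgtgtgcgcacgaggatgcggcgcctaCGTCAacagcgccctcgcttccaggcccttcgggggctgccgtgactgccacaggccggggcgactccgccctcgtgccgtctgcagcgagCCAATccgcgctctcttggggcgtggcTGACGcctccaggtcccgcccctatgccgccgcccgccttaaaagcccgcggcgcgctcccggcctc
Rgs17: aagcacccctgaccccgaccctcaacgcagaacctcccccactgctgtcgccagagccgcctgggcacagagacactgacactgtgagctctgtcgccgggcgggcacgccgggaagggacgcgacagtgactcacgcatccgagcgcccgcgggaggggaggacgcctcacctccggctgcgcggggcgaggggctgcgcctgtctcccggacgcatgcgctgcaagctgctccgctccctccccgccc

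The Rgs4 window held half-sites beginning 236 and 141 bases before the start, a CCAAT box at 57 bases and a TATA box at 31 bases. The Rgs2 window held half-sites at 185 and 67 bases and a CCAAT box at 94 bases, with no TATA box in these letters. Rgs17 held none of the 3 motifs. GC boxes (GGGCGG or CCGCCC, not capitalised) lay at 152 and 6 bases in Rgs17 and at 232, 119, 52 and 38 bases in Rgs2, and Rgs4 held none. RefSeq gave 11 windows for 8 members, and no entry was matched for Rgs14 or Rgs20. A half-site was found in 4 of those windows, in Rgs2, Rgs4, Rgs8 and Rgs12, against 17.8% of 32851 mouse promoter windows of the same length, and the full element (TGACGTCA, which holds both half-sites) was in 0 of the 11, against 1.55% of all windows. The TATA letters were in 12.4% of all windows, the CCAAT letters in 33.8% and the GC box in 32.7%. Rgs2 and Rgs4 both carry the half-site letters. A match of letters is not a bound site, and the part of any motif in the differences was not tested.

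Of the 10 members, 6 were called at an adjusted p-value below 0.05 over all genes (limma, Benjamini-Hochberg), Rgs2 as higher in the bigenic mice and Rgs4, Rgs10, Rgs14, Rgs17 and Rgs20 as lower. Over all 10588 genes, 35.9% were called, 20.5% as higher and 15.4% as lower. The 2 groups of mice did not overlap for 5 members, against 39.0% of all genes. The median log2(fold change) of the members was -0.36, and that of all genes tested was 0.03. Because the members were selected with this contrast known, nothing is read from these counts.

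**Figure D1:**
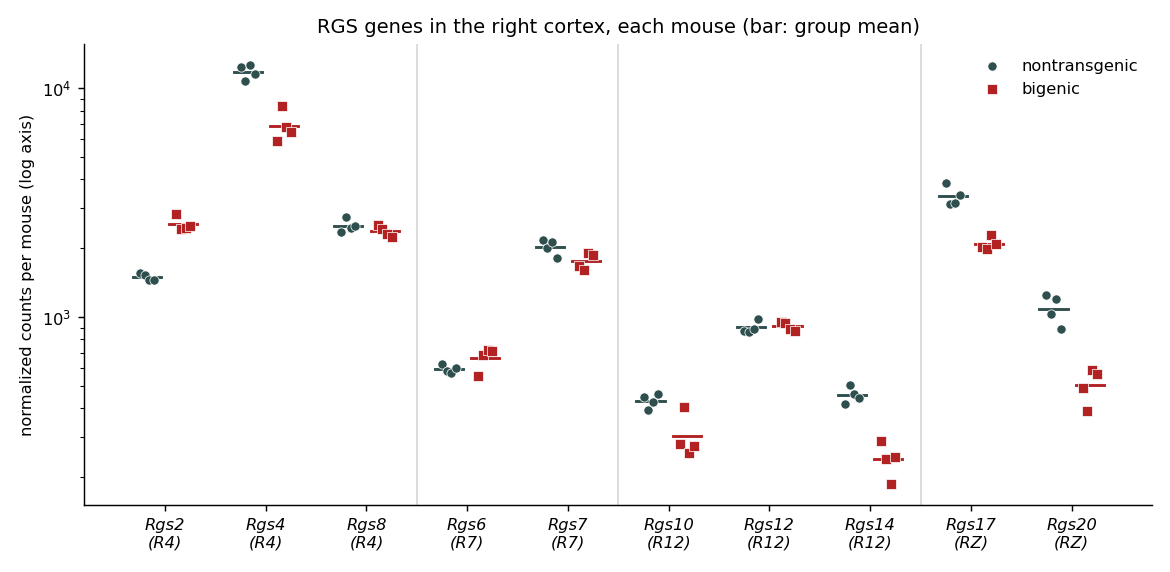
Normalized counts of the 10 RGS genes (log axis) in each nontransgenic mouse (circles) and bigenic mouse (squares), with the group mean as a bar and genes grouped by subfamily. Rgs4, Rgs14, Rgs17 and Rgs20 lie lower in every bigenic mouse than in any nontransgenic mouse, Rgs2 lies higher, and the groups overlap for Rgs6, Rgs7, Rgs8, Rgs10 and Rgs12.

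The R4 members differed from each other. Rgs4, an abundant neuronal regulator of Gαi and Gαq signals, had 12358, 10804, 12663 and 11571 normalized counts in the nontransgenic mice and 5888, 8388, 6781 and 6474 in the bigenic mice. No bigenic mouse reached the lowest nontransgenic mouse, and the second bigenic mouse came nearest. The means were 11849 ± 835 and 6883 ± 1070 (SD, n = 4 each), a log2(fold change) of -0.79 with a standard error of 0.11, which places nontransgenic cortex 1.73-fold above bigenic cortex.

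Rgs2, which acts chiefly on Gαq and whose transcript is induced by neuronal activity, had 1558, 1530, 1452 and 1462 normalized counts in the nontransgenic mice and 2839, 2436, 2460 and 2504 in the bigenic mice. Every bigenic mouse was above every nontransgenic mouse, and the first bigenic mouse stood above the other 3. The means were 1500 ± 51.7 and 2560 ± 188 (SD, n = 4 each), a log2(fold change) of 0.77 with a standard error of 0.08, or 1.70-fold. Rgs8, the third R4 member and a regulator of Gαi signals to potassium channels, had 2357, 2747, 2443 and 2508 normalized counts in the nontransgenic mice and 2535, 2438, 2316 and 2245 in the bigenic mice. Its groups overlapped, with a log2(fold change) of -0.08 and a 95% confidence interval of -0.25 to 0.09.

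Both RZ members were lower, and their mice did not overlap. Rgs20, also called RGSZ1, had 1246, 1033, 1200 and 889 normalized counts in the nontransgenic mice and 489, 391, 587 and 564 in the bigenic mice. Its log2(fold change) of -1.11 (standard error 0.15) was the farthest from 0 of the 10 members, with means of 1092 ± 163 and 508 ± 88.4 (SD, n = 4 each) and nontransgenic cortex 2.16-fold above. The exons of Rgs20 share 125 bases, 2.95% of their length, with Gm17101 on the opposite strand, and the strand used in counting was not given in the sources used here.

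Rgs17, its close relative (RGSZ2), had 3878, 3125, 3148 and 3407 normalized counts in the nontransgenic mice. In the bigenic mice it had 2021, 1981, 2299 and 2082. The highest bigenic mouse was below the lowest nontransgenic mouse. The log2(fold change) was -0.69 with a standard error of 0.09, from means of 3390 ± 350 and 2096 ± 142 (SD, n = 4 each).

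The R12 members differed among themselves. Rgs14, a scaffold that binds Gαi and Ras relatives and is best known in neurons of hippocampal field CA2, had 418, 505, 464 and 442 normalized counts in the nontransgenic mice and 289, 240, 186 and 245 in the bigenic mice. The groups did not overlap. The means were 457 ± 37 and 240 ± 42.2 (SD, n = 4 each), a log2(fold change) of -0.94 with a standard error of 0.14. Of 5 measured markers of hippocampus and CA2, 2 were also lower by the test across all genes, Wfs1 (-1.41) and Amigo2 (-0.68), and none was at 0 in any mouse. Summed, the 5 markers ran from 1382 to 1829 normalized counts in the bigenic mice and from 2696 to 3396 in the nontransgenic mice, and their part in the Rgs14 difference was not tested.

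Rgs10, a short RGS protein found in neurons and in microglia, had 448, 392, 425 and 460 normalized counts in the nontransgenic mice and 278, 405, 256 and 273 in the bigenic mice. The second bigenic mouse lay among the nontransgenic mice, and the other 3 lay below all of them. The means were 431 ± 29.9 and 303 ± 68.6 (SD, n = 4 each), a log2(fold change) of -0.53 with a standard error of 0.14. Without that second bigenic mouse the value was -0.68. Without the first nontransgenic mouse it was -0.51 and was no longer called. All 4 measured microglial markers were lower in the bigenic mice by the test across all genes: Cx3cr1 (-0.56), P2ry12 (-0.65), Csf1r (-0.33) and Tmem119 (-0.40). Their summed level was 3034 to 3355 normalized counts in the bigenic mice and 4025 to 4584 in the nontransgenic mice, none was at 0, and their part in the Rgs10 difference was not tested.

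Rgs12, a long protein that joins an RGS domain to several binding domains, had 872, 865, 890 and 987 normalized counts in the nontransgenic mice and 953, 945, 888 and 868 in the bigenic mice. The groups overlapped throughout, with a log2(fold change) of 0.02 and a 95% confidence interval of -0.15 to 0.19.

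Neither R7 member was called. Rgs7, the main R7 protein of the forebrain, had 2169, 1999, 2129 and 1811 normalized counts in the nontransgenic mice and 1672, 1603, 1904 and 1880 in the bigenic mice. Its log2(fold change) was -0.20, with a 95% confidence interval of -0.40 to 0.00. Rgs6, a relative known from the heart and from dopamine neurons, had 627, 581, 568 and 600 normalized counts in the nontransgenic mice and 552, 682, 718 and 710 in the bigenic mice. The first bigenic mouse was the lowest of all 8 and the other 3 bigenic mice were the highest, for a log2(fold change) of 0.16 and a 95% confidence interval of -0.06 to 0.38.

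**Figure D2:**
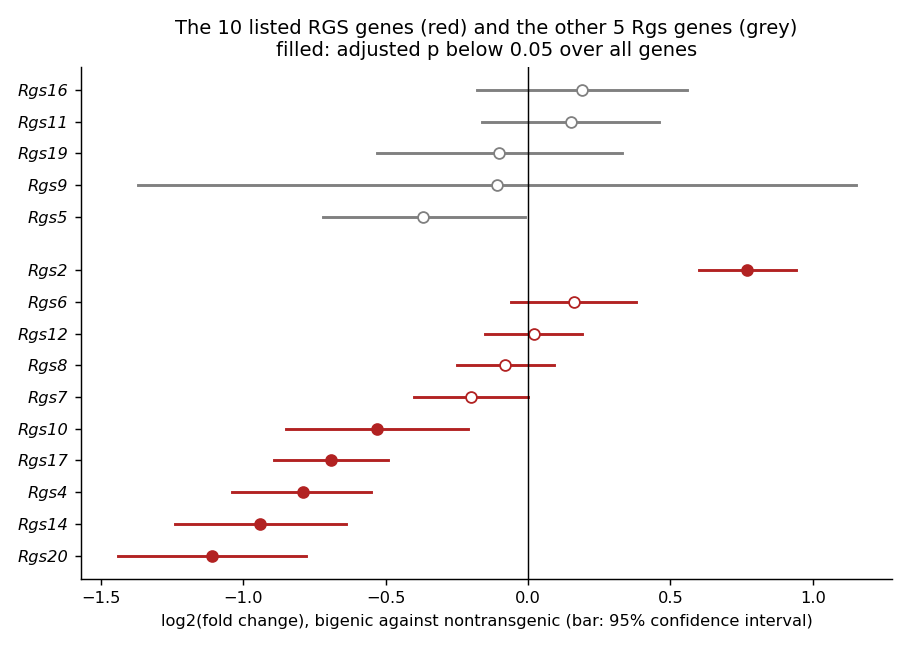
log2(fold change) of bigenic against nontransgenic mice with its 95% confidence interval for the 10 listed RGS genes (red) and the other 5 genes with an Rgs symbol (grey), filled where the adjusted p-value was below 0.05 over all genes. The listed genes run from -1.11 (Rgs20) to 0.77 (Rgs2), and none of the grey genes is filled.

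The other 5 genes with an Rgs symbol past the threshold were Rgs5, Rgs9, Rgs11, Rgs16 and Rgs19, and 0 of them were called by limma, with 1, Rgs5, at an unadjusted p-value below 0.05. Rgs5, a marker of pericytes, had the log2(fold change) farthest from 0, at -0.37 (standard error 0.16, adjusted p = 0.0951 by limma). It was called without the fourth nontransgenic mouse, at -0.48. Rgs19, an RZ relative of Rgs17 and Rgs20, had 174 ± 36.8 normalized counts in the bigenic mice and 184 ± 31.9 in the nontransgenic mice (SD, n = 4 each), a log2(fold change) of -0.10 with a standard error of 0.19. Rgs16, an R4 gene, stood at 0.19 (standard error 0.17), and the R7 gene Rgs11 at 0.15 (standard error 0.14).

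Rgs9, the R7 protein of the striatum, varied far more between mice than between groups. Bigenic mice had 905, 99, 206 and 205 normalized counts, and nontransgenic mice had 230, 472, 211 and 227. The 2 mice highest for Rgs9 were also the 2 highest for the summed striatal markers, of which Rgs9 is 1. They were the first bigenic mouse, at 6660 normalized counts, and the second nontransgenic mouse, at 6241. The other bigenic mice had 1219, 2415 and 2100, and the other nontransgenic mice had 4378, 3885 and 3596. Of 7 measured striatal markers, 1 was called, Penk, as lower in the bigenic mice (-1.38). Whether these sums differ through dissection or through expression was not tested. Without the first bigenic mouse and the second nontransgenic mouse, 5 members were called, with Rgs10 at -0.54 no longer among them. The share of all genes called was then 21.5%.

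Levels between members can be compared only per length, so values were divided by the kilobases of annotated exon. That length is of all GENCODE exons of the gene, merged, and may differ from the bases counted for the transcript. The order of members, their shares and ratios between them depend on it. Rgs4 led in both groups, with 3825 ± 269 normalized counts per kb in the nontransgenic mice and 2222 ± 345 in the bigenic mice (SD, n = 4 each). Rgs7 was second, with 1242 ± 98.8 and 1081 ± 91.9, although before division its mean was below those of Rgs8 and Rgs17 in both groups. In the nontransgenic mice, Rgs2 (414), Rgs17 (408) and Rgs8 (360) followed as neighbours whose mice overlapped, then Rgs20 (258) and Rgs10 (252), which overlapped, then Rgs14 (184) and Rgs6 (175), which overlapped, and last Rgs12 (114). In the bigenic mice Rgs2 (706) stood clear of Rgs8 (341), which stood clear of Rgs17 (253). Rgs14, 8th in the nontransgenic mice, was 10th in the bigenic mice at 96.4 normalized counts per kb, where it overlapped Rgs12 (115), and Rgs12 overlapped Rgs20 (120).

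**Figure D3:**
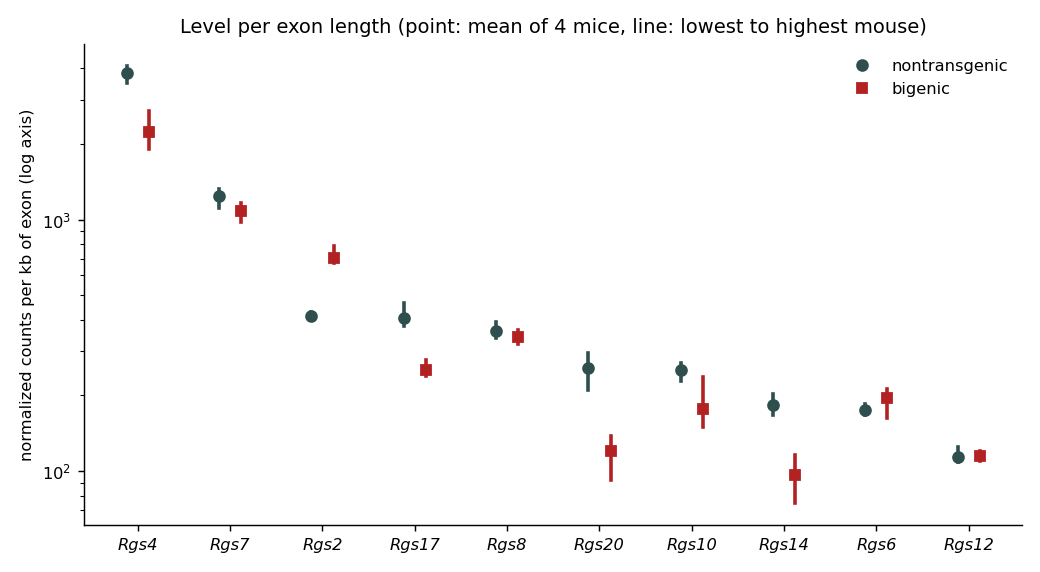
Normalized counts per kilobase of annotated exon (log axis) for each RGS gene in nontransgenic (circles) and bigenic (squares) mice, as the mean of 4 mice with a line from the lowest to the highest mouse. Rgs4 is highest in both groups, at 3825 and 2222, and Rgs2 moves away from Rgs17 and Rgs8 in the bigenic mice.

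The make-up of the 10 listed members differed with these levels. The other 5 genes with an Rgs symbol are in neither the sum nor the shares. Summed over the 10 members, the level per kb was 7571, 6860, 7519 and 6975 in the nontransgenic mice and 4991, 5695, 5329 and 5215 in the bigenic mice. Rgs4 made up 52.7%, 50.8%, 54.4% and 53.5% of that sum in the nontransgenic mice and 38.1%, 47.5%, 41.1% and 40.1% in the bigenic mice. The share of Rgs2 was 5.32% to 6.15% in the nontransgenic mice and 11.8% to 15.7% in the bigenic mice. As a ratio of levels per kb, Rgs4 exceeded Rgs2 between 8.27 and 10.2 times in nontransgenic cortex and between 2.43 and 4.03 times in bigenic cortex. The listed R4 members together kept an overlapping share, 62.7% to 64.5% against 59.5% to 65.5%. So did the listed R12 members, 7.13% to 8.19% against 6.32% to 7.99%. The share of the listed RZ members was 8.81% to 10.1% in the nontransgenic mice and 5.81% to 7.80% in the bigenic mice. That of the listed R7 members was 18.4% to 20.4% and 20.8% to 26.1%, and neither share overlapped. A share also moves with the levels of the other members, Rgs4 above all. Neither R7 member was itself called, with log2(fold changes) of -0.20 for Rgs7 and 0.16 for Rgs6.

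R7 proteins are held at the membrane and kept stable by partners, and these were examined next. Gnb5, which encodes the obligate subunit Gβ5, had 3136, 2697, 2817 and 2795 normalized counts in the nontransgenic mice and 1484, 1466, 1701 and 1905 in the bigenic mice. The groups did not overlap, and the gene was lower by the test across all genes, with a difference of -0.81 on the log2 scale (standard error 0.10, adjusted p = 0.000321 by limma). Gpr158, an orphan receptor that anchors R7 proteins, was lower at -0.30 (standard error 0.10, adjusted p = 0.033 by limma), with 4508 ± 546 against 5531 ± 217 normalized counts (SD, n = 4 each). That call was lost when any 1 of the nontransgenic mice was left out, with adjusted p-values up to 0.09. Rgs7bp, the palmitoylated anchor of R7 proteins, had 8059 ± 516 against 8904 ± 828 normalized counts (SD, n = 4 each), with a log2(fold change) of -0.14 (adjusted p = 0.217 by limma). Gpr179, the retinal counterpart of Gpr158, ran from 15 to 469 normalized counts in the bigenic mice and from 15 to 465 in the nontransgenic mice and had a log2(fold change) of -0.67 and a standard error of 1.29.

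**Figure D4:**
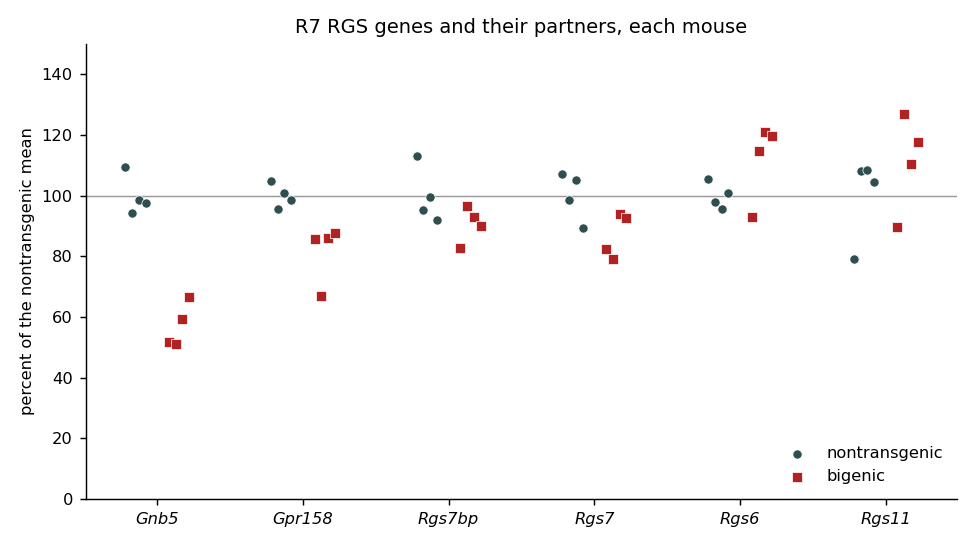
Each mouse's value as a percent of the nontransgenic mean for 3 partner genes (Gnb5, Gpr158 and Rgs7bp) and 3 R7 genes (Rgs7, Rgs6 and Rgs11), nontransgenic mice as circles and bigenic mice as squares. The bigenic mice lie below every nontransgenic mouse for Gnb5 and Gpr158 and overlap the nontransgenic mice for Rgs7bp, Rgs7, Rgs6 and Rgs11.

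The wider list of RGS-domain genes and R7 partners held 17 RGS-domain genes and 5 partners, of which 15 were measured and 4 were called, 2 as higher and 2 as lower. These counts, and the 8 of 24 Gα, Gβ and Gγ transcripts and 9 of 21 regulator and effector transcripts called, stand beside 35.9% called over all genes. The higher ones were Axin1 and Snx13, whose RGS-like domains sit in proteins of Wnt signalling and of endosomal sorting. Axin1 had 1056 ± 409 against 607 ± 53.8 normalized counts (SD, n = 4 each) and a log2(fold change) of 0.73 (standard error 0.21, adjusted p = 0.0218 by limma). The second bigenic mouse had 1657 and the others 795 to 969, and without it the value was 0.49. Its call was lost without the first, the second or the third nontransgenic mouse. Snx13 stood at 0.40 (standard error 0.09, adjusted p = 0.0064 by limma).

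Among the Gα subunits that RGS proteins act on, 4 of 13 measured transcripts were called. Gnai1, an inhibitory subunit and a substrate of most members, had 5576, 5053, 5536 and 4998 normalized counts in the nontransgenic mice and 2892, 2964, 3077 and 2908 in the bigenic mice. It was lower with no overlap, at -0.84 (standard error 0.07, adjusted p = 4e-05 by limma). Its relatives Gnai2 (0.42, adjusted p = 0.00395 by limma) and Gnai3 (0.28, adjusted p = 0.0496 by limma) were higher, as was Gna11 of the Gq class (0.45, adjusted p = 0.00841 by limma). The Gnai3 call was lost when 1 of 6 mice was left out, the first, the third or the fourth bigenic mouse or the first, the second or the third nontransgenic mouse.

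Of 11 measured Gβ and Gγ genes, 3 were lower and 1 was higher. Gnb1, the main Gβ of the forebrain, had 14064 ± 1283 against 19177 ± 607 normalized counts (SD, n = 4 each) and stood at -0.45 (standard error 0.08, adjusted p = 0.00186 by limma). Gng10 stood at -0.83 (adjusted p = 0.000802 by limma), and 72% of its exon bases are shared with Gm20503 on the same strand. Gng13 stood at -0.60 (adjusted p = 0.0392 by limma), with 51.6% of its exon bases shared with Chtf18 on the opposite strand, and its call was lost when any 1 mouse other than the second bigenic mouse was left out. Gng4 was higher at 0.48 (standard error 0.11, adjusted p = 0.0087 by limma).

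Other regulators and effectors gave 9 called of 21 measured transcripts, 6 higher and 3 lower. The 3 GIRK potassium channel genes measured, which Gβγ opens and RGS proteins speed, were all higher: Kcnj9 at 0.68 (adjusted p = 0.00951 by limma), Kcnj6 at 0.56 (adjusted p = 0.0154 by limma) and Kcnj3 at 0.48 (adjusted p = 0.0074 by limma). Gm17595 on the opposite strand shares 31.1% of the exon bases of Kcnj3. Kcnj6 had 924, 877, 886 and 994 normalized counts in the nontransgenic mice and 1100, 1890, 1254 and 1298 in the bigenic mice, with no overlap. Phospholipase C-β genes, effectors of Gαq, moved apart. Plcb4 was higher at 0.45 (adjusted p = 0.00613 by limma). The main Plcb1 transcript (uc008mny.2), with 7586 ± 623 against 9912 ± 589 normalized counts (SD, n = 4 each), was lower at -0.39 (adjusted p = 0.00506 by limma), and a minor one (uc008mnv.2) stood at -0.85 (adjusted p = 0.0435 by limma).

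The minor Plcb1 transcript changed to -0.52 without the second bigenic mouse, and its call was lost without the first bigenic mouse or any 1 nontransgenic mouse. Of 8 measured genes for GoLoco proteins (which hold Gα in its GDP form) and G protein chaperones, 2 were higher, Rap1gap at 0.37 (adjusted p = 0.00541 by limma) and Gpsm2 at 0.25 (adjusted p = 0.04 by limma). Of 6 receptor kinase and arrestin genes, 1 was lower, Adrbk2 at -0.29 (adjusted p = 0.0422 by limma). The Gpsm2 call was lost when the first, the third or the fourth bigenic mouse or the first, the second or the third nontransgenic mouse was left out, and the Adrbk2 call without the first or the fourth bigenic mouse or any 1 nontransgenic mouse. Across these lists the median log2(fold change) ran from -0.49 for the R7 partners to 0.45 for the channels and phospholipases, beside 0.03 for all genes. The R7 partner median is over 4 genes, among them Gpr179, whose value had a standard error of 1.29.

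**Figure D5:**
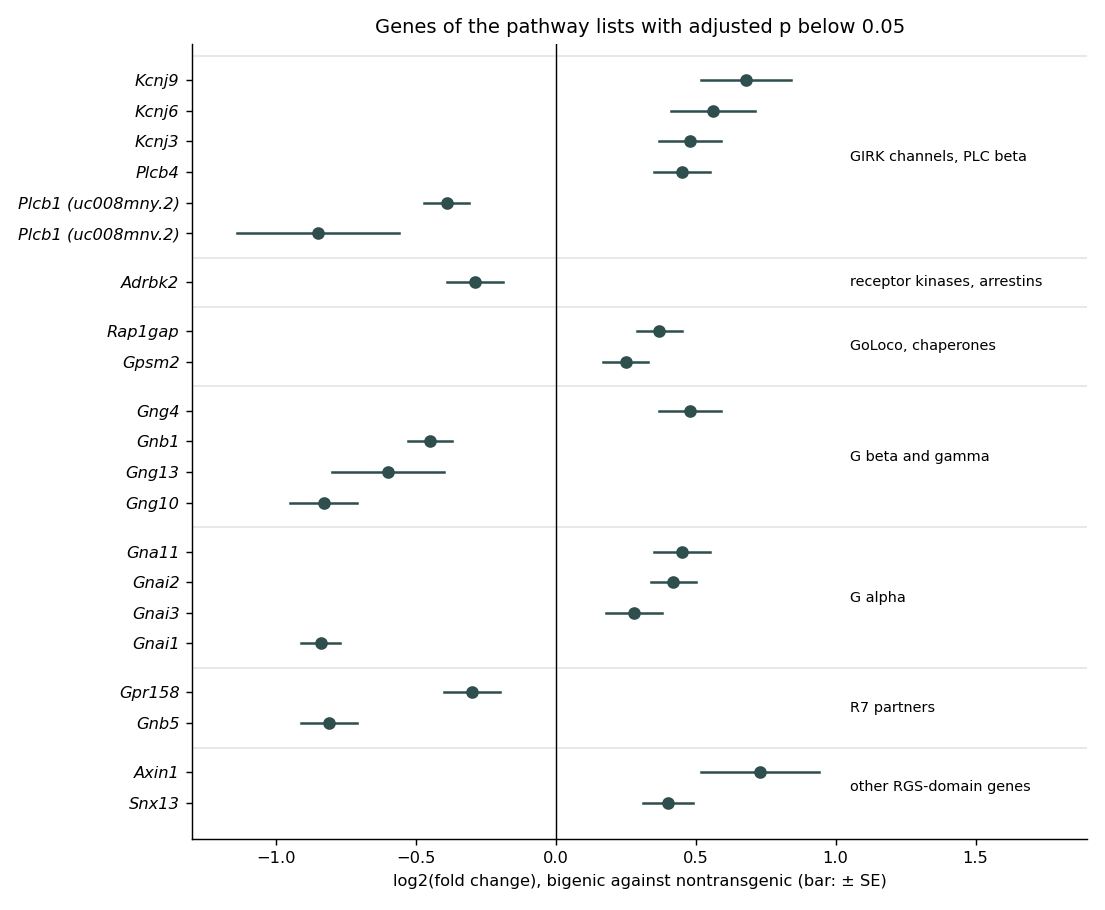
log2(fold change) of bigenic against nontransgenic mice, with bars of 1 standard error either way, for the genes of the pathway lists with an adjusted p-value below 0.05, grouped by role. GIRK channel genes lie between 0.48 and 0.68, and Gnai1, Gng10 and Gnb5 lie between -0.84 and -0.81.

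The genes most like the 3 members of highest mean normalized count, not divided by length, were found by Pearson's r of log2 values over the 8 mice, a description that carries the group difference and the shared library scaling with it. For Rgs4 they were Cds1 (r = 0.997), Cdipt (0.994) and Gnb1 (0.992). For Rgs17 they were Nrxn3 (0.988), Spag9 (0.987) and BC025190 (0.985). For Rgs8, whose groups overlapped, they were Pign (0.949), Hip1 (0.919) and Fam36a (0.916).

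The members lie at different places and have different shapes in mm9. Rgs4 (chr1:171671608-171677773), Rgs2 (chr1:145846468-145851291), Rgs7 (chr1:176989867-177421261), Rgs8 (chr1:155500155-155544797) and Rgs20 (chr1:4899657-5060366) are on chromosome 1. The others are Rgs10 (chr7:135517135-135562272), Rgs17 (chr10:4424141-4520878), Rgs6 (chr12:83717912-84259755), Rgs14 (chr13:55471093-55486048) and Rgs12 (chr5:35292094-35382293). Rgs2 and Rgs4 are compact genes of 4.82 and 6.17 kb with 4 exons each, and Rgs6 and Rgs7 span 542 and 431 kb.

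TDP-43 prefers UG-rich RNA, so uninterrupted TG repeats of at least 6 units were counted on the sense strand, which reads as the RNA does. They numbered 73 in Rgs6, 52 in Rgs7, 11 in Rgs20, 7 each in Rgs8 and Rgs10, 5 in Rgs17, 4 in Rgs12 and 2 in Rgs14. Rgs2 and Rgs4 held 0. A repeat was thus present in 8 of 10 members, and in 73.7% of all genes tested. The members had a median length of 67.7 kb, against 28.4 kb for all genes tested, and held a median of 9.45 repeats per 100 kb against 7.72. Whether repeats bear on the differences between the groups was not tested.

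Reads on genes (M, megareads), read from the smallest step between values, came to 10.6 to 31.9 M in the bigenic mice and to 22.5 to 29.0 M in 3 nontransgenic mice, and no step could be read in the second nontransgenic mouse. A transcript row with no gene symbol, uc999vvf.1, had 29375 to 41550 normalized counts in the bigenic mice and 5 to 80 in the nontransgenic mice, and mouse Tardbp had 4908 to 5502 and 6116 to 7116. The second bigenic mouse, also the shallowest, stood apart from the other 3 on the first principal component of all genes (46.0 against 12.8 to 15.1). Without it 45.6% of all genes and the same 6 members were called, with log2(fold changes) of 0.79 for Rgs2, -0.89 for Rgs4, -0.68 for Rgs10, -0.95 for Rgs14, -0.66 for Rgs17 and -0.99 for Rgs20. All 6 markers of cortical excitatory neurons were measured, and Camk2a among them was lower (-0.88). All 4 measured choroid plexus markers, Ttr among them, were higher, at 8385 to 19459 summed normalized counts in the bigenic mice and 363 to 1203 in the nontransgenic mice, and all 5 astrocyte markers summed to 22388 to 27156 and 29189 to 31575. Their part in the differences of the members was not tested.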

How the data were processed

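Reads were trimmed with cutadapt, mapped to mm9 with Bowtie 0.12.7 (unique matches only), counted over exons with bedtools and merged to genes by the authors. The authors tested the gene counts with DESeq2. The deposited table holds normalized counts, a signal scaled between mice and rounded to whole numbers, per transcript and mouse, and how it was scaled is not given in the sources used here. A second deposited table gave symbols and the authors' mean normalized counts, from which the means of these values differed by a median of 0.34%. Its columns of the authors' own fold changes and p-values were not used. The columns of the first table name groups and animals but no replicate number, so mice are called by their order in the table.

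Transcripts that reached 10 RPM, per the column total, in 1 or more mice were kept (10588), log2(value + 1) was taken, and bigenic mice were compared with nontransgenic mice by limma 3.58.1 (R 4.3.3) with a trend, two-sided, with Benjamini-Hochberg adjustment over all genes. Fold changes were read on that log scale and are too small for genes with low values. The script was tested on simulated data, where 200 of 200 genes changed by 2-fold were called, as were 12 unchanged genes. The simulated mice had the same spread and depth and none stood apart, unlike the real mice. Those counts therefore do not say how many changed genes were missed here. The planned count test was not used because the values are not raw counts. Reads were estimated from the step between values. At these depths 3 reads correspond to 1.94 to 6.21 normalized counts in the bigenic mice and 2.18 to 2.82 in the nontransgenic mice whose step could be read, far below every member.

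Exon lengths and positions came from GENCODE on mm9, and promoters from RefSeq on GRCm38.p6. The genes named were every member, up to 6 called genes of each pathway list with the largest change, all R7 partners, the other genes with an Rgs symbol and marker genes, and 3 genes most like each of the 3 members of highest mean normalized count. Rgs symbols outside the members, the unnamed transcript and Tardbp were added after their values were seen. The members and lists were chosen with earlier results of these data known. Alternatives covered the pseudocount, the read filter, scaling, array weights and each mouse left out.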

Additional observations from a re-analysis of the deposited data

Results flagged for a closer look

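Of 76 groups of 4 mice over the genes described, 10 held 1 mouse far from the other 3, where chance gives about 1 in 20. Among the members, the first bigenic mouse was high for Rgs2, at 2839 normalized counts against 2436 to 2504, and the second bigenic mouse was high for Rgs10, at 405 against 256 to 278. Rgs9 was high in the first bigenic mouse, at 905 against 99 to 206, and in the second nontransgenic mouse, at 472 against 211 to 230. The second bigenic mouse was also low for Snx13 (3115 against 3692 to 3804), for Gpr158 (3694 against 4733 to 4855) and for Gnai3 (1077 against 1290 to 1319), and high for Gna11 (4180 against 3087 to 3143). The first nontransgenic mouse was low for Rgs11 (318 against 420 to 437) and high for the minor Plcb1 transcript (309 against 250 to 256).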

How the results depend on the processing

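No paired analysis was possible because the table's columns carry animal numbers and none of the replicate numbers of the labels. The share of all genes called was 35.9% as reported, 61% under array weights, 25.1% to 45.6% when a mouse was left out and 21.5% without the mouse of each group highest for striatal markers, and the counts that follow stand beside those shares. The count of members called stayed between 5 and 9 under every alternative run, with 9 under array weights, where Rgs6, Rgs7 and Rgs8 were called as well (0.26, -0.14 and -0.14). Rgs7 was also called under quantile normalization (-0.27), and Rgs6 without the first bigenic mouse (0.24). Rgs14 could not be fitted with the filter set to every mouse, since 1 mouse fell under it. Leaving out each mouse in turn gave 5 to 7 called members, and log2(fold changes) of 0.72 to 0.79 for Rgs2, -0.89 to -0.72 for Rgs4, -0.68 to -0.46 for Rgs10, -1.04 to -0.82 for Rgs14, -0.74 to -0.62 for Rgs17 and -1.20 to -0.99 for Rgs20.

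The count of other RGS and partner genes called went from 4 to 8 under array weights and ran from 2 to 5 when a mouse was left out. For regulators and effectors it went from 9 to 14 under array weights and ran from 6 to 12 when a mouse was left out. For G protein subunits it was 8 and ran from 6 to 11 over all settings. Without the mouse of each group highest for striatal markers, a setting chosen after seeing the data that leaves 3 mice a group, the counts were 1, 5 and 6. The cause of the shift under array weights was not tested. The shallow second bigenic mouse limits what can be said of genes near the read threshold.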
